A study of Schmidtea mediterranea with 18 samples.

Results

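The Hippo pathway is a kinase cascade in which the Hippo kinase (Mst1/2 in mammals) acts through Warts (Lats1/2 in mammals) to restrain the coactivator Yorkie, and it is known in flies and mammals for limiting tissue growth. Planarians renew their tissues throughout life from neoblasts, the pool of dividing stem cells, and lose and replace differentiated cells even when they are not injured. The measurements described here are those of *hippo (RNAi)* planarians (*Schmidtea mediterranea*) after 4 weeks of inhibition, set against *hippo (RNAi)* planarians after 3 weeks. The question was whether the response of the transcriptome to *hippo* inhibition had reached a plateau by 3 weeks or was still moving. The comparison holds 6 of the 18 libraries of the series, which were chosen by their treatment labels alone: libraries 268O, 264O and 269O at 4 weeks and libraries 266O, 267O and 260O at 3 weeks.

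All animals belonged to the asexual BCN-10 clonal line, whole animals were used, and every library pooled 5 animals, so that replicates are pools. *hippo (RNAi)* animals had received double-stranded RNA for *hippo* by injection, and controls the same kind of RNA for *gfp*, which has no counterpart in planarians. Both were kept without food, so a later time point is also a longer starvation. The injection protocol in the study's methods runs over 3 consecutive weeks, and whether injections went on into the fourth week is not given in the sources used, so the last week may be one with or without further injections. The other groups of 3 libraries each, *hippo (RNAi)* animals at 1 week and *gfp (RNAi)* animals at 1, 3 and 4 weeks, entered the fit for the estimate of the spread and were used to show what a week changes in controls and what the preceding weeks changed under *hippo* RNAi. RNAi lowers a transcript without deleting the gene, and neither the level of *hippo* nor markers of any cell type could be checked, since gene names were paired with transcript codes for 20 genes only. As whole animals were measured, fewer cells of a type and less RNA per cell cannot be told apart.

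Transcript levels were deposited as TPM, a relative abundance per length that sums to the same total in every library and keeps no depth, so no counting error can be given. Of 41745 transcripts, 28735 averaged 1 TPM or more across all 18 libraries and were compared on the log2(TPM + 1) scale, which understates changes of low transcripts. Calls were made at an adjusted p below 0.05 (limma, Benjamini-Hochberg over all tested transcripts). The 50 most abundant transcripts took 21.8 ± 0.15% of all TPM at 4 weeks and 22.2 ± 0.53% at 3 weeks (SD, n = 3 libraries each), and the difference did not pass an exact permutation test (two-sided p = 0.3, where 3 against 3 libraries cannot go below 0.1). Library 268O stood somewhat apart, with 5616 transcripts at 0 against 4302 to 5143 in the other 5 libraries and the lowest mean rank correlation with the libraries of both weeks. Library numbers 260O and 264O lie apart from 266O to 269O, 1 of them in each week.

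Between 4 and 3 weeks of *hippo* RNAi 6 transcripts were called (0.0209% of those tested), 2 higher (0.00696%) and 4 lower (0.0139%) at 4 weeks. At an unadjusted p under 0.05 there were 2332 transcripts (8.12%), of which 1141 were higher (3.97%) and 1191 lower (4.14%). In controls the same week gave 2 called transcripts (0.00696%) and 1492 at an unadjusted p under 0.05 (5.19%). The called transcripts of the controls share a code and have libraries listed at 0, as described at the end. The preceding interval in *hippo (RNAi)* animals, 3 weeks against 1 week, gave 2320 called transcripts (8.07%), 1431 higher and 889 lower at 3 weeks. That interval spans 2 weeks and shares the libraries of 3 weeks with the comparison described here, so the counts stand side by side and were not tested against each other. Against controls of the same week, 4441 transcripts were called at 3 weeks (15.5%) and 6195 at 4 weeks (21.6%). These counts depend on the control libraries too, and their difference was not tested.

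The intervals of the change show which sizes of change the data allow, which a missed call does not. For 19471 of the tested transcripts (67.8%) the 95% interval of the log2 change between 4 and 3 weeks lay within 0.5 either way, and the median change over all transcripts was 0.0040. The other transcripts were mostly low ones, with wide intervals. The share within 0.5 was 68.8% in controls over the same week. It was 63.7% for 3 weeks against 1 week of *hippo* RNAi, where 2320 transcripts were called. The share alone therefore does not show a plateau. Of the 10677 transcripts that averaged 10 TPM or more, 66 (0.618%) had a change of 0.5 or more on the log2 scale in *hippo (RNAi)* animals between 4 and 3 weeks, against 42 (0.393%) in controls over the same week and 334 (3.13%) in *hippo (RNAi)* animals between 3 weeks and 1 week. The median size of the change in this class was 0.052 between 4 and 3 weeks under *hippo* RNAi, 0.041 in controls over the same week and 0.085 between 3 weeks and 1 week under *hippo* RNAi. The last of these intervals spans 2 weeks and shares the 3-week libraries, so its values do not show whether the change per week slowed.

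**Figure D1:**
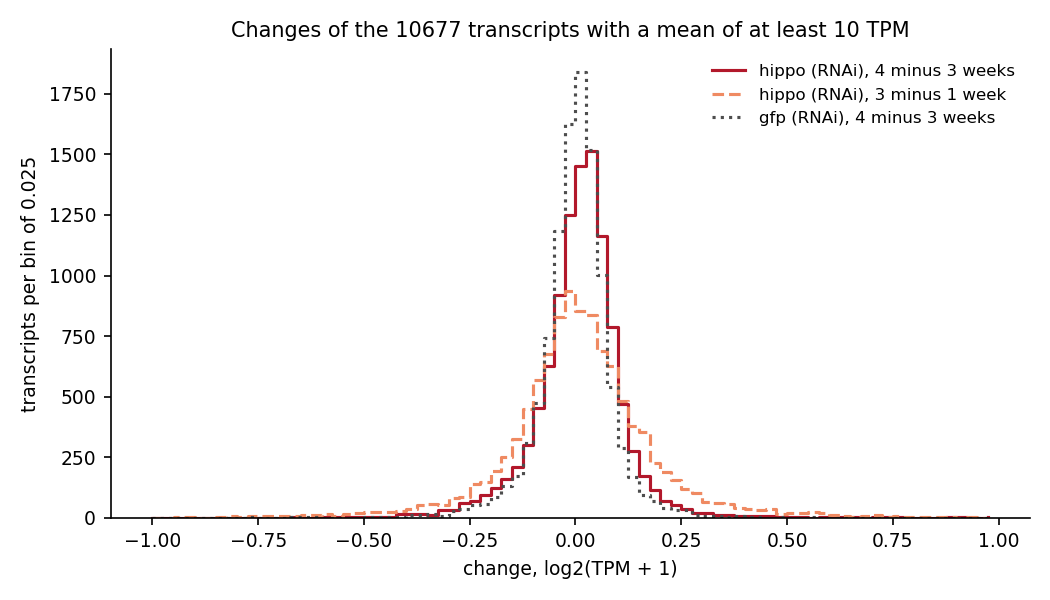
Change on the log2(TPM + 1) scale (horizontal axis) of the 10677 transcripts that averaged 10 TPM or more, as the number of transcripts per bin (vertical axis), for *hippo (RNAi)* animals at 4 against 3 weeks (solid red), *hippo (RNAi)* animals at 3 weeks against 1 week (dashed orange) and controls at 4 against 3 weeks (dotted gray). The solid red distribution lies close to the gray one and is narrower than the dashed one, which spans 2 weeks. Outside the axis lie 14, 37 and 13 transcripts, in the order of the first sentence.

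Rank correlations between libraries were high throughout and did not separate 4 from 3 weeks. Spearman's rho across transcripts lay between 0.955 and 0.970 for the 9 pairs of a 4-week with a 3-week library, between 0.957 and 0.966 within 4 weeks, and between 0.963 and 0.970 within 3 weeks. The pairs of a 3-week with a 1-week library lay between 0.956 and 0.965, and those of a 4-week with a 1-week library between 0.948 and 0.961. Of the 4-week libraries, 268O had the lowest mean with those of 1 week (0.951, against 0.960 for 264O and 0.957 for 269O). Without library 268O the pairs of 4 with 3 weeks lay between 0.961 and 0.970.

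The precision of the comparison depended on abundance. Among the 18058 transcripts with a mean between 1 and 10 TPM, the median standard error was 0.165 and 51.8% had an interval within 0.5 either way. Among the 9363 transcripts between 10 and 100 TPM the median standard error was 0.057 and 94.5% had such an interval, and among the 1168 transcripts between 100 and 1000 TPM it was 0.042, with 96.5%. In the last of these classes 26.4% of the transcripts had an unadjusted p under 0.05, against 12.1% in controls over the same week, and 3 of the 6 calls fell in it. Low transcripts were thus measured less precisely than abundant ones. All 50 of the most abundant transcripts had intervals within 0.5 either way, with changes between -0.30 and 0.24, and none was called, although 12 had an unadjusted p under 0.05. Among the 146 transcripts of 1000 TPM and over, to which these 50 belong, 21.2% had such a p, against 17.1% in controls over the same week.

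The transcript with the largest called rise was dd_Smed_v6_615_0_1, the only transcript of its code in the assembly. It was at 376, 283 and 333 TPM in the 4-week libraries (268O, 264O and 269O), against 151, 167 and 178 TPM in the 3-week libraries (266O, 267O and 260O). Every 4-week library lay above every 3-week library, and the mean at 4 weeks was 1.999 times that at 3 weeks. The log2 change was 0.99 (standard error 0.12, 95% interval 0.74 to 1.24, limma adjusted p = 0.00802). This transcript was already higher in *hippo (RNAi)* animals at 1 week, with 66.0, 67.02 and 57.9 TPM, against 39.5, 35.5 and 49.3 TPM in controls. In controls it lay at 28.1 to 30.9 TPM at 3 weeks and at 20.7 to 25.001 TPM at 4 weeks, so its change had the opposite sign there.

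The second called rise was that of dd_Smed_v6_2080_0_1, also alone in its code. Its levels were 53.8, 56.6 and 54.1 TPM at 4 weeks, against 40.1, 36.1 and 40.3 TPM at 3 weeks, and the groups did not overlap. The log2 change was 0.49 (standard error 0.06, limma adjusted p = 0.00833). At 1 week the *hippo (RNAi)* libraries were at 24.2, 21.3 and 22.7 TPM, and the 9 control libraries of all weeks lay between 13.7 and 18.5 TPM. For both transcripts the rise continued one that was called between 3 weeks and 1 week, where the log2 changes were 1.36 and 0.75 (limma adjusted p = 6.12e-06 and 4.11e-06).

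Of the 4 transcripts that fell, dd_Smed_v6_364_0_4 had 15.1, 13.6 and 14.9 TPM at 4 weeks, against 19.996, 24.97 and 23.7 TPM at 3 weeks, without overlap. Its log2 change was -0.62 (standard error 0.08, limma adjusted p = 0.0140). The 6 control libraries of 3 and 4 weeks lay between 22.4 and 24.4 TPM, in the range of the *hippo (RNAi)* libraries of 3 weeks. The code of this transcript has 9 transcripts in the assembly, between which kallisto can divide reads. Summed over the code, the TPM were 400.4 ± 16.0 at 4 weeks and 463.8 ± 1.42 at 3 weeks (SD, n = 3 libraries each), a log2 change of -0.21 that was not called (limma adjusted p = 0.110).

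A pair of further falls lay outside the rule for naming transcripts and was chosen after the values were seen. dd_Smed_v6_1360_0_1 was at 151, 142 and 154 TPM at 4 weeks, against 189, 210 and 208 TPM at 3 weeks, a log2 change of -0.43 (standard error 0.06, limma adjusted p = 0.0201). dd_Smed_v6_80_0_1, an abundant transcript, was at 563, 548 and 544 TPM at 4 weeks, against 670, 684 and 624 TPM at 3 weeks, a log2 change of -0.26 (standard error 0.04, limma adjusted p = 0.0232). Neither overlapped between the weeks, and both are alone in their code. Both also fell between 3 weeks and 1 week under *hippo* RNAi (log2 changes of -0.30 and -0.13, limma adjusted p = 0.00525 and 0.0414). Over that earlier interval dd_Smed_v6_1360_0_1 fell in controls too, with a log2 change of -0.26 that was not called (limma adjusted p = 0.0940). For dd_Smed_v6_80_0_1 the change in controls was 0.02. In controls dd_Smed_v6_1360_0_1 averaged 198.9 ± 8.86 TPM at 4 weeks and 211.2 ± 18.2 TPM at 3 weeks, and dd_Smed_v6_80_0_1 averaged 721.9 ± 17.1 TPM at 4 weeks and 741.1 ± 22.2 TPM at 3 weeks (SD, n = 3 libraries each).

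The last of the called transcripts, dd_Smed_v6_5675_0_28, was listed at 0 in all 3 libraries of 4 weeks, against 3.03, 2.69 and 4.91 TPM in those of 3 weeks (limma adjusted p = 0.00141). It was listed at 0 in all 9 control libraries as well, and at 3.59, 3.11 and 6.77 TPM in *hippo (RNAi)* libraries of 1 week. With a mean of 1.34 TPM over all libraries, it passed the filter only through the groups in which it was above 0. Groups listed at 0 throughout have no spread, which lowers its standard error, so its p is not read as support. No fold change is given, since a listed 0 can be an estimate that failed. Its code has 35 transcripts, and their summed TPM were 88.2 ± 5.89 at 4 weeks and 102.5 ± 11.1 at 3 weeks (SD, n = 3 libraries each), which was not called (limma adjusted p = 0.646). The other transcripts of the code held most of its TPM in all 6 libraries.

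**Figure D2:**
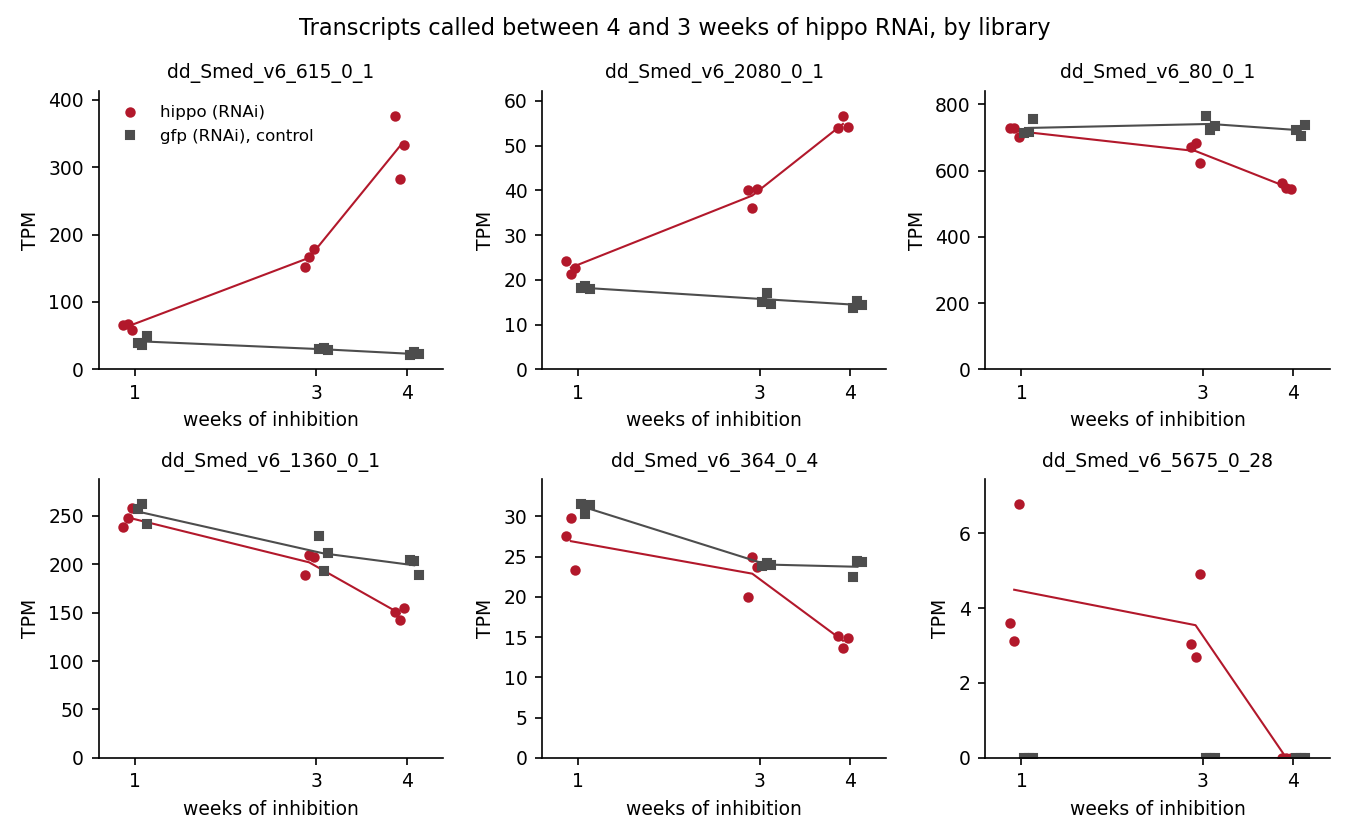
TPM (vertical axes, linear from 0) of the 6 called transcripts by weeks of inhibition (horizontal axes). Each red circle is a *hippo (RNAi)* library and each gray square a control library, and lines join the group means. In the top left panel the 4-week *hippo (RNAi)* libraries sit between 283 and 376 TPM, above all others.

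The calls rested in part on single libraries and on the spread that libraries of the other groups supplied. Without library 267O 1 of the 6 transcripts was called, without 264O 2 of them, and without 268O 3 of them, while without 269O 14 transcripts were called, 5 of them from the 6. The rise of dd_Smed_v6_615_0_1 lost its call without 267O (log2 change 0.99, limma adjusted p = 0.0665), and that of dd_Smed_v6_2080_0_1 without 267O or 264O (0.44 and 0.47, limma adjusted p = 0.0720 and 0.0698). The fall of dd_Smed_v6_364_0_4 lost it without 267O, 260O, 268O or 264O (-0.64 to -0.55, limma adjusted p between 0.0584 and 0.103). dd_Smed_v6_1360_0_1 lost it without the same 4 libraries (limma adjusted p between 0.0817 and 0.151) and dd_Smed_v6_80_0_1 without any of 266O, 267O, 268O, 264O or 269O (limma adjusted p between 0.0788 and 0.166). dd_Smed_v6_5675_0_28 kept its call without any single library, but its groups at 0 add no spread, so this lends the call no support. In a fit of the 6 libraries alone, with their own spread and fewer degrees of freedom, 7 transcripts were called, none of them among these 6 (adjusted p of the 6 between 0.0819 and 0.259 from limma). With a term for the library numbers that lie apart (260O and 264O), 2 transcripts were called, none of them among these 6 (limma adjusted p of the 6 between 0.136 and 0.435). The directions of the 6 did not change in these fits.

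Comparing the change over this week between *hippo (RNAi)* animals and controls, 3 transcripts were called (0.0104% of those tested, with 1917 at an unadjusted p under 0.05, 6.67%). They were dd_Smed_v6_615_0_1, dd_Smed_v6_2080_0_1 and dd_Smed_v6_5675_0_28. For the first of them the difference on the log2 scale was 1.37 (standard error 0.17, limma adjusted p = 0.0214) and for dd_Smed_v6_2080_0_1 it was 0.60 (standard error 0.08, limma adjusted p = 0.0454). For dd_Smed_v6_5675_0_28, at 0 in all controls, the adjusted p was 0.0454 (limma). Because libraries at 0 have no spread, that p is not read as support for a difference. No transcript was called in this comparison when 257O, 258O or 259O of the controls or 267O, 268O or 269O of the *hippo (RNAi)* libraries was left out, and 1 was called without 261O, 264O or 266O. The 3 other transcripts that fell were not called in this comparison, with differences of -0.60, -0.35 and -0.22 for dd_Smed_v6_364_0_4, dd_Smed_v6_1360_0_1 and dd_Smed_v6_80_0_1 (limma adjusted p = 0.206, 0.367 and 0.349). Their falls are therefore not shown to be particular to *hippo (RNAi)* animals.

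The 20 genes whose names are paired with transcript codes comprise growth regulators and genes of mitotic entry, the spindle, cytokinesis and mitotic exit. The study chose them on these libraries, so they are not an unselected sample. None of the 20 was called between 4 and 3 weeks (0.0209% of all tested), and 2 had an unadjusted p under 0.05, a share near the 8.12% of all tested. All 20 had a 95% interval within 0.5 either way, against 67.8% of all tested transcripts and 94.5% of those between 10 and 100 TPM. The changes ran from -0.23 to 0.15 with a median of 0.042, against 0.0040 over all tested transcripts. Between 3 weeks and 1 week 9 of the same genes were called, against 8.07% of all tested transcripts. In 7 of the 20 genes (35.0%) the libraries of the weeks did not overlap, 5 with higher and 2 with lower values at 4 weeks, against 14.3% of all tested transcripts (7.33% higher, 6.99% lower).

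Among the genes of growth and G1, *insulin-like growth factor* (IGF, dd_Smed_v6_3513_0_1), a secreted growth factor, was at 52.7, 55.5 and 52.4 TPM at 4 weeks, against 49.9, 47.2 and 47.9 TPM at 3 weeks. The groups did not overlap, but the log2 change of 0.14 (standard error 0.06, 95% interval 0.03 to 0.26) was not called (limma adjusted p = 0.495). *progranulin* (PGRN, dd_Smed_v6_67_0_1), a secreted growth factor of high abundance here, was at 1004, 979 and 984 TPM at 4 weeks, against 898, 923 and 913 TPM at 3 weeks. Its groups did not overlap either, with a log2 change of 0.12 (95% interval -0.05 to 0.29, limma adjusted p = 0.749). In the interval before, 3 weeks against 1 week, the log2 changes of these genes were 0.71 and 0.52, and both were called. The earlier changes span 2 weeks and the later ones 1 week, so their sizes are not compared.

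*lysosomal acid lipase* (LAL), which hydrolyses cholesteryl esters and triglycerides in lysosomes, was at 16.6, 19.6 and 20.2 TPM at 4 weeks, against 16.8, 19.8 and 18.03 TPM at 3 weeks, with overlapping groups. Its log2 change was 0.04 (95% interval -0.15 to 0.23), after a called fall of 0.68 on the log2 scale between 3 weeks and 1 week. *CDC42*, a small GTPase of cell polarity and the actin cytoskeleton, was at 258 to 269 TPM at 4 weeks and 255 to 263 TPM at 3 weeks, a log2 change of 0.02 (95% interval -0.05 to 0.09). *caprin 1*, a cytoplasmic RNA-binding protein linked to proliferation in vertebrates, and the *muscarinic receptor* had log2 changes of 0.01 and -0.01, with intervals of -0.04 to 0.06 and -0.19 to 0.17. *protein tyrosine phosphatase*, listed for mitotic entry, was at 23.1, 21.0 and 21.2 TPM at 4 weeks, against 22.4, 24.5 and 22.8 TPM at 3 weeks, a log2 change of -0.09 (95% interval -0.29 to 0.11) after a called rise of 0.54 between 3 weeks and 1 week. A second transcript of its code had a log2 change of 0.06 between 4 and 3 weeks.

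None of the 3 genes of cytokinesis and membranes was called. *dynamin 1-like* (DYN1, dd_Smed_v6_1074_0_1), a GTPase of membrane scission, was at 137, 129 and 130 TPM at 4 weeks, against 121, 127 and 130 TPM at 3 weeks. Its groups overlapped, and the log2 change was 0.07 (95% interval -0.10 to 0.23), against 0.59 between 3 weeks and 1 week. *septin 4* (Sept4, dd_Smed_v6_4007_0_1), one of the filament-forming septins that act in cytokinesis, was at 68.8, 67.5 and 67.2 TPM at 4 weeks, against 66.8, 64.9 and 63.3 TPM at 3 weeks. Its groups did not overlap, with a log2 change of 0.06 (95% interval -0.03 to 0.15), against 0.41 between 3 weeks and 1 week. *centriolin*, a centrosome protein required for abscission in mammalian cells, had a log2 change of 0.15 (95% interval -0.02 to 0.31), and a second transcript of its code one of 0.02.

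Among the 8 spindle genes, 4 had positive and 4 negative changes, and none was called. *aurora kinase 1* (AURK1, dd_Smed_v6_12125_0_1), a mitotic kinase, was at 4.57, 4.48 and 4.27 TPM at 4 weeks, against 5.92, 5.37 and 4.86 TPM at 3 weeks. The groups did not overlap and the log2 change of -0.23 (standard error 0.08, 95% interval -0.39 to -0.06) was the most negative of the list, but it was not called (limma adjusted p = 0.415). *polo-like kinase 1* (PLK1, dd_Smed_v6_13738_0_1), which acts at the centrosome and spindle in mitosis, was at 4.76, 4.77 and 4.22 TPM at 4 weeks, against 5.48, 4.86 and 5.05 TPM at 3 weeks, also without overlap (log2 change -0.13, 95% interval -0.28 to 0.01). Its code has a second tested transcript, dd_Smed_v6_13738_0_2, which went the other way with a log2 change of 0.19 and was not called (limma adjusted p = 0.731). *afadin*, an adaptor of cell junctions, was at 14.1, 14.6 and 14.4 TPM at 4 weeks, against 13.8, 13.4 and 13.8 TPM at 3 weeks, a log2 change of 0.07 (95% interval -0.02 to 0.16).

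The remaining spindle genes overlapped between the weeks. *alpha tubulin 3A* had a log2 change of 0.15 (95% interval -0.0044 to 0.30), but a second transcript of its code one of -0.20, and the summed code gave 0.07. *kinesin family member 2A*, a microtubule depolymerase, had a log2 change of 0.06 (95% interval -0.02 to 0.13), and *Drosophila discs large*, a polarity scaffold, one of 0.03 (-0.09 to 0.15). *rootletin*, a part of the ciliary rootlet, and *RASSF1*, an adaptor that binds Hippo kinases in mammals, had log2 changes of -0.0074 and -0.02, and a second transcript of the code of *RASSF1* one of 0.11. Of the genes of the checkpoint and mitotic exit, *BUB1*, a kinase of the spindle checkpoint, was at 15.1, 15.1 and 15.0 TPM at 4 weeks, against 14.2, 13.7 and 14.2 TPM at 3 weeks, without overlap, a log2 change of 0.09 (95% interval -0.02 to 0.21, limma adjusted p = 0.6995). *anaphase promoting complex subunit 1* had a log2 change of 0.04 (95% interval -0.07 to 0.15). None of the genes was called in any of the 19 alternative fits, of which the one with a filter of 10 TPM tested 15 of them and the others all 20.

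**Figure D3:**
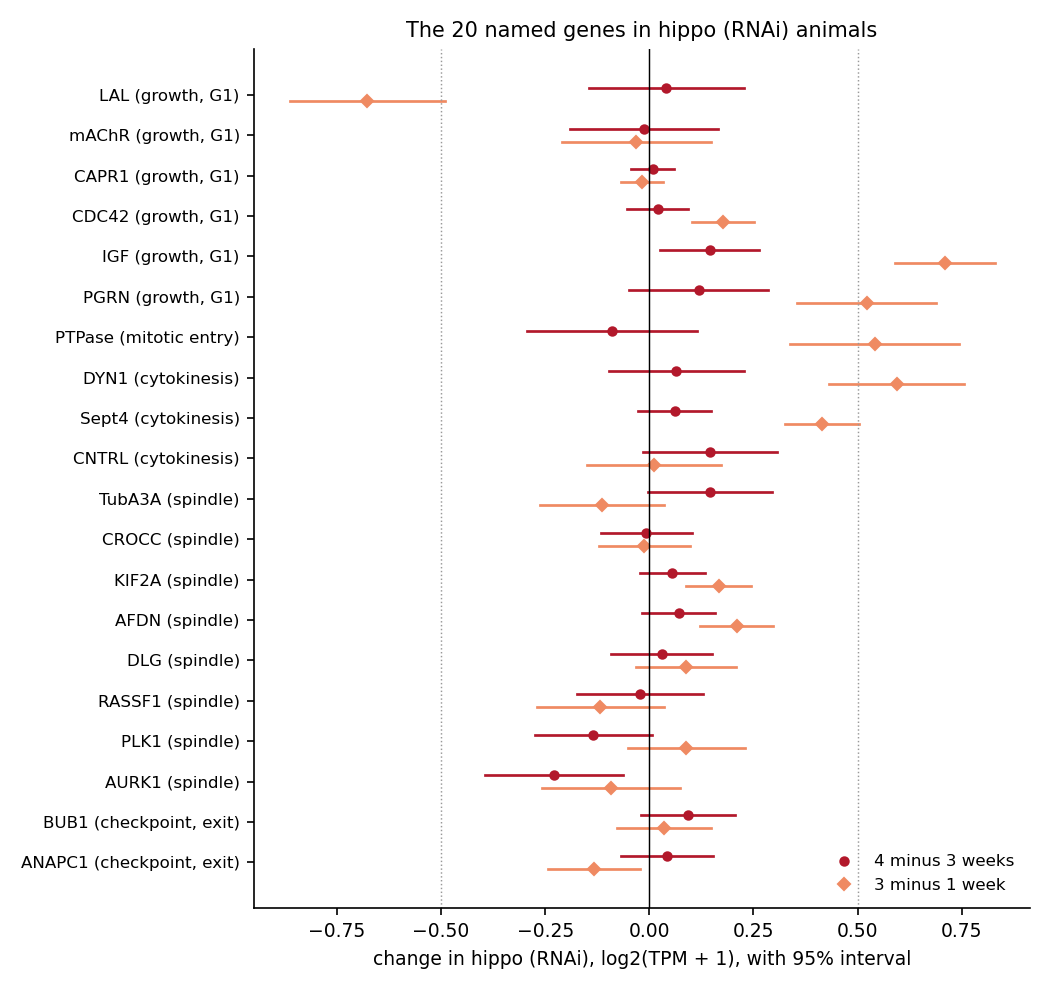
Change on the log2(TPM + 1) scale (horizontal axis) with 95% intervals (bars) of the 20 named genes (rows, with their group) in *hippo (RNAi)* animals, for 4 against 3 weeks (red circles) and 3 weeks against 1 week (orange diamonds); dotted lines mark 0.5 either way. All 20 red intervals lie between the dotted lines, while *insulin-like growth factor* reached 0.71 and *lysosomal acid lipase* -0.68 in the earlier comparison.

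To ask whether transcripts that had responded first were still moving, lists were taken from group differences of libraries that the comparison does not use. The spread was estimated over all 18 libraries, however, so a choice by calls favors transcripts of small spread. The shares called, at an unadjusted p or without overlap can be higher in the lists through this choice, and how far was not tested. The 188 transcripts (0.654% of those tested) that were called higher after 1 week of *hippo* RNAi than in controls of 1 week had a median log2 difference of 0.36 there. Between 3 weeks and 1 week under *hippo* RNAi their median change was 0.35, and between 4 and 3 weeks it was 0.057 (the libraries of 1 week also chose the list, so the change from them is not independent of the choice), against 0.0040 over all tested transcripts. Of these transcripts, 71.3% had a positive change between 4 and 3 weeks, against 51.5% of all tested. Called were 3 of the 188, against 0.0209% of all tested. They include dd_Smed_v6_5675_0_28, which fell and whose p is not read as support. In 35.1% every 4-week library lay above every 3-week library, against 7.33% of all tested transcripts, and in 8.51% every one lay below, against 6.99%. The list held more abundant transcripts than the rest (median of 33.9 TPM, against 5.68 TPM over all tested), for which changes are measured more precisely.

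Set against the mean of controls at 3 weeks, the median of this list was 0.74, 0.72 and 0.73 in the 4-week libraries (268O, 264O and 269O), 0.70, 0.72 and 0.72 in the 3-week libraries (266O, 267O and 260O) and 0.27, 0.41 and 0.42 in the 1-week libraries (252O, 253O and 254O). The 4-week and 3-week libraries overlapped on this measure, while the 1-week libraries lay below both. The median change between 4 and 3 weeks was 0.041 without library 268O, 0.048 within 266O to 269O and 0.049 between 264O and 260O alone. The 3 called members were dd_Smed_v6_615_0_1 and dd_Smed_v6_2080_0_1, which rose, and dd_Smed_v6_5675_0_28, which fell.

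The 56 transcripts called lower in *hippo (RNAi)* animals at 1 week (0.195% of those tested) had a median log2 difference of -0.66 there, a median change of -0.048 between 3 weeks and 1 week, which again shares the libraries of 1 week with the choice, and one of 0.055 between 4 and 3 weeks. None of them was called between 4 and 3 weeks by limma (0.0209% over all tested), with 4 higher and 4 lower at an unadjusted p under 0.05 (7.14% each, against 3.97% and 4.14% over all tested). In 1.79% every 4-week library lay above every 3-week library, against 7.33% of all tested, and in 5.36% every one lay below, against 6.99%. The median abundance of the list was 34.9 TPM. Against controls at 3 weeks their median was -0.65, -0.44 and -0.72 in the 4-week libraries (268O, 264O and 269O) and -0.81, -0.77 and -0.55 in the 3-week libraries (266O, 267O and 260O), with overlap. The libraries 264O and 260O, whose numbers lie apart, were the least low in their weeks, and the median change was 0.067 within 266O to 269O and 0.021 between 264O and 260O alone. Without 264O or without 266O the median change was -0.028 or -0.042, so its sign rested on single libraries.

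**Figure D4:**
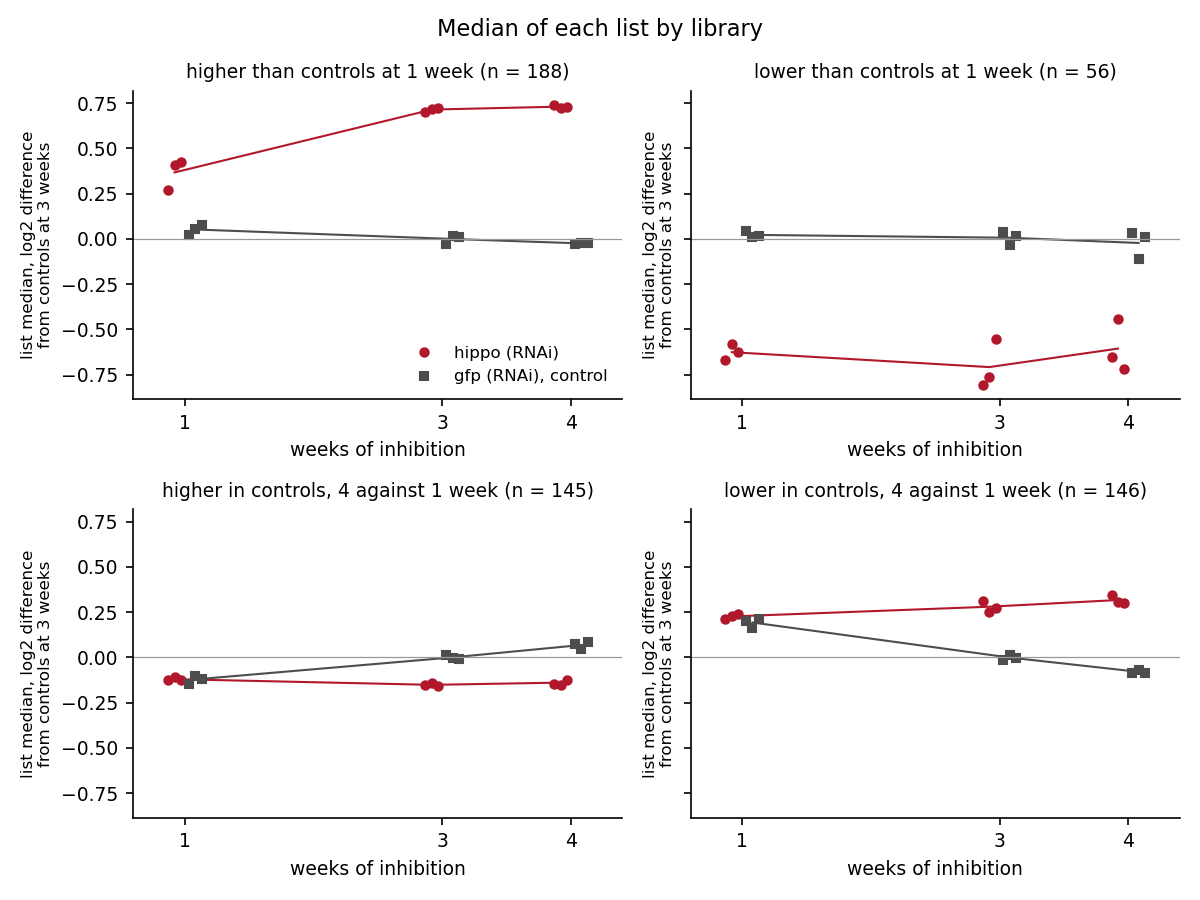
Median over each list of the log2(TPM + 1) difference from the mean of controls at 3 weeks (vertical axes), by weeks of inhibition (horizontal axes), for *hippo (RNAi)* libraries (red circles) and control libraries (gray squares), with lines through the group means. In the top left panel *hippo (RNAi)* libraries lie at 0.27 to 0.42 at 1 week and at 0.70 to 0.74 at 3 and 4 weeks.

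Starvation time was examined in the same way, and with the same limit of a shared spread, with lists from the controls at 4 weeks against 1 week. The 145 transcripts called higher in controls (0.505% of those tested) had a median change of 0.013 in *hippo (RNAi)* animals between 4 and 3 weeks and of 0.067 in controls over the same week. The controls of 4 weeks also chose the list, so the value in controls is not independent of the choice. Between 3 weeks and 1 week the same list had a median change of -0.032 under *hippo* RNAi. None of the 145 was called in *hippo (RNAi)* animals between 4 and 3 weeks by limma, against 0.0209% of all tested. At an unadjusted p under 0.05 there were 19 higher (13.1%) and 8 lower (5.52%), against 3.97% and 4.14% of all tested. In 21.4% of them every 4-week library lay above every 3-week library, against 7.33% of all tested, and in 5.52% every one lay below, against 6.99%. The list held abundant transcripts (median of 142 TPM).

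The 146 transcripts called lower in controls (0.508%) had a median change of 0.016 in *hippo (RNAi)* animals between 4 and 3 weeks and of -0.083 in controls. Relative to controls at 3 weeks they stood at 0.34, 0.31 and 0.30 in the 4-week libraries of *hippo (RNAi)* animals and at 0.31, 0.25 and 0.28 in the 3-week libraries, in the order of libraries used above. The median change was 0.0013 without library 268O and -0.0018 without 267O. At an unadjusted p under 0.05 there were 19 higher (13.0%) and 18 lower (12.3%), against 3.97% and 4.14% of all tested. Every 4-week library lay above every 3-week library in 14.4% and below in 14.4%, against 7.33% and 6.99% of all tested. This list held 4 of the 6 called transcripts (0.0209% of all tested), of which dd_Smed_v6_1360_0_1 and dd_Smed_v6_364_0_4 fell, as they did in controls between 4 weeks and 1 week, and dd_Smed_v6_615_0_1 and dd_Smed_v6_2080_0_1 rose. Across all tested transcripts the changes between 4 and 3 weeks in *hippo (RNAi)* animals and in controls, which share no library, had a Pearson's r of -0.0042 and a Spearman's rho of -0.0088, given as a description across transcripts of varied abundance. At 10 TPM and over that rho was -0.032. With the difference between *hippo (RNAi)* animals and controls at 1 week, which also shares no library, rho was 0.035. At 10 TPM and over it was 0.162, with a Pearson's r of 0.080.

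The libraries of 4 weeks also differed among themselves in a set of transcripts that was noticed in the data, so it is described without a test. At a level of 10 TPM or more in any 4-week library and of 1 TPM or less in each *hippo (RNAi)* library of 3 and 1 weeks there were 9 transcripts, each alone in its code. All 9 were high in library 264O (35.8 to 195.9 TPM) and lower in 268O (6.87 to 36.2 TPM), and in 269O they were at 0 to 1.66 TPM, 6 of them listed at 0. For example, dd_Smed_v6_8048_0_1 was at 33.9, 195.9 and 0 TPM in 268O, 264O and 269O, against 0.21, 0.23 and 0.35 TPM in 266O, 267O and 260O. The ratio of 264O to 268O lay between 4.497 and 11.2 with a median of 5.85. Among the control libraries 263O, of 4 weeks, had 0.45 to 6.26 TPM and was above the other 8 for all 9 transcripts, none of which passed 0.90 TPM there. None of the 9 was called between 4 and 3 weeks (limma adjusted p between 0.164 and 0.436). They passed the filter only through 264O and 268O and were picked by their values there, so these p are not read as a result. By the same levels 2 transcripts were found for the libraries of 3 weeks and 2 for those of 1 week under *hippo* RNAi.

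**Figure D5:**
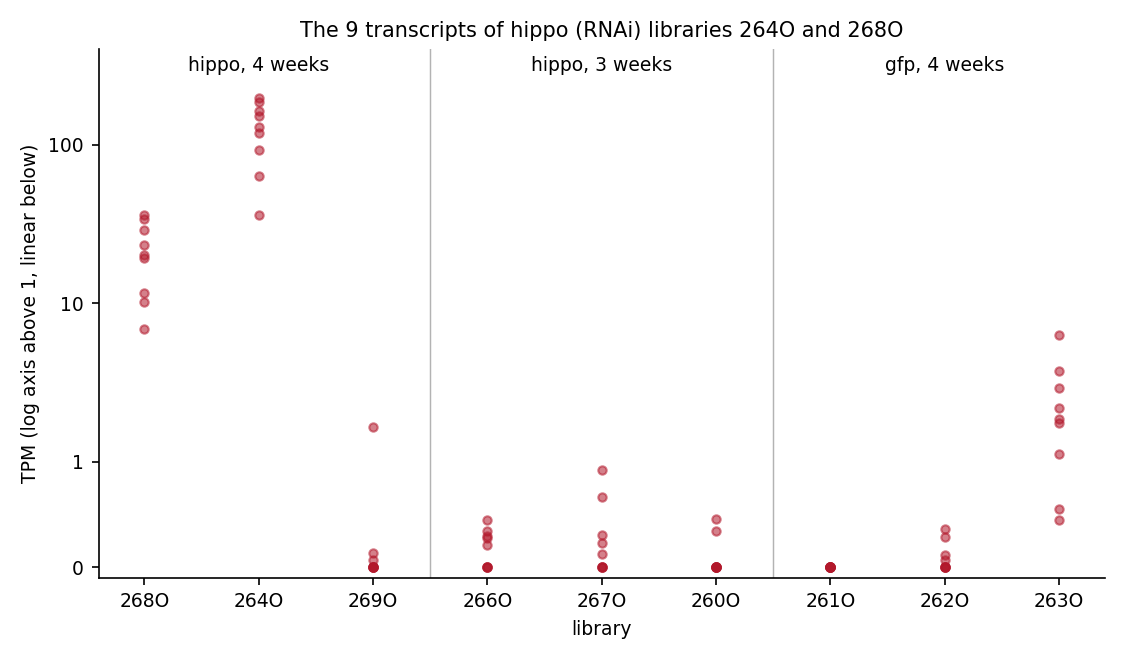
TPM (vertical axis, logarithmic above 1 and linear below) of these 9 transcripts, 1 point each, in the *hippo (RNAi)* libraries of 4 weeks and of 3 weeks and in the control libraries of 4 weeks (horizontal axis). The points of 264O lie between 35.8 and 195.9 TPM, those of 268O between 6.87 and 36.2 TPM, and those of the 3-week libraries below 1 TPM.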

How the data were processed

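RNA was extracted from whole planarians with TRIzol, and paired-end sequencing of stranded poly(A) libraries was done on an Illumina HiSeq. The authors quantified them with kallisto 0.43.0 against the dd_Smed_v6 transcript assembly, and the deposited TPM give 1 abundance for each transcript in each library. Because every library has the same total, changes are relative, and neither depth nor counting error can be read from the values. Read numbers and trimming were not given in the sources used.

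The values were moved to the log2(TPM + 1) scale and fitted with limma 3.58.1 in R 4.3.3 for 28735 transcripts averaging 1 TPM or more, with 6 group means over all 18 libraries, a trend in the variance and Benjamini-Hochberg adjustment (FDR 0.05). *hippo (RNAi)* animals at 4 weeks were compared with those at 3 weeks. The same week in controls, the difference between the treatments, and 3 weeks against 1 week of *hippo* RNAi came from the same fit. So did the comparisons of *hippo (RNAi)* animals with controls of the same week. Groups were taken from the treatment labels. The script was tested on simulated data, and figures were drawn with matplotlib 3.10.9.

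The members, the lists and the tests were chosen with earlier results of these data known. Transcripts were named by a rule: the 20 codes that the supplementary table of the study pairs with genes, which it chose on these libraries (the most abundant transcript of each code), and the 2 largest rises and 2 largest falls among called transcripts whose weeks did not overlap, likewise for the difference between treatments. Other transcripts are given by identifier, and those outside the rule are marked as such. The lists from 1 week and from starved controls came from libraries outside the 6 compared, though the spread was estimated over all 18.

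The alternatives were pseudocounts of 0.1 and 5, no filter, a filter of 10 TPM, no trend, the compared groups alone, median-ratio scaling, array weights, TPM summed by assembly code, an FDR of 0.10, a minimum fold of 1.2, a term for library numbers and leaving out libraries. The settings of the lists were added after the values were seen.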

Additional observations from a re-analysis of the deposited data

Results flagged for a closer look

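A test of the difference between the change in *hippo (RNAi)* animals and that in controls over this week called 3 transcripts (limma, Benjamini-Hochberg over all tested transcripts). The count was 0 to 3 when single libraries were left out, so these calls rest on single libraries. dd_Smed_v6_615_0_1 had a log2 change of 0.99 in *hippo (RNAi)* animals and of -0.38 in controls, a difference of 1.37 (standard error 0.17, adjusted p = 0.0214). dd_Smed_v6_2080_0_1 had 0.49 in *hippo (RNAi)* animals and -0.11 in controls, a difference of 0.60 (standard error 0.08, adjusted p = 0.0454). dd_Smed_v6_5675_0_28 was listed at 0 in the 3 *hippo (RNAi)* libraries of 4 weeks and in all controls, against 2.69 to 4.91 TPM in the *hippo (RNAi)* libraries of 3 weeks (adjusted p = 0.0454), and its code is divided among 35 transcripts. Libraries at 0 have no spread, so the p of this transcript is not read as support for a difference. In all 3 cases every *hippo (RNAi)* library of 4 weeks lay on the same side of every library of 3 weeks.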

How the results depend on the processing

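The count of transcripts called between 4 and 3 weeks of *hippo* RNAi (6) was 25 with a filter of 10 TPM (5 of the 6 among them), 23 with array weights (all 6), 15 at an FDR of 0.10, 1 with a minimum fold of 1.2 and 2 with a term for library numbers (none of the 6), and 1 to 14 when single libraries were left out. Without 260O and 264O, 7 were called (3 of the 6). The count in controls (2) was 0 with a pseudocount of 0.1, no filter, the filter of 10 TPM, no trend, summed codes or the minimum fold, 9 with the compared groups alone, and 0 to 2 without single libraries. That of 3 weeks against 1 week (2320) was 1099 with the compared groups alone, 174 with the minimum fold, and 1548 to 1993 without single libraries. The count of differences between treatments (3) was 1 with a pseudocount of 0.1, 6 with the compared groups alone, 0 with the minimum fold, and 0 to 3 without single libraries. The cause of these shifts was not tested, beside the smaller number of tests under the filter and of libraries in the smaller fits. The alternatives of the named genes gave 375 values, of which 363 kept their sign and stayed uncalled and 12 changed sign near 0. These were *lysosomal acid lipase* (-0.013 to 0.124 without single libraries), the *muscarinic receptor* (-0.041 to 0.026, and 0.037 without 260O and 264O), *rootletin* (-0.060 to 0.041, and 0.011 with array weights), *discs large* (-0.034 to 0.062) and *RASSF1* (-0.051 to 0.026, 0.028 with summed codes and 0.0071 without 260O and 264O). Under single libraries left out, the list medians ranged from 0.041 to 0.066 (higher at 1 week), -0.042 to 0.158 (lower at 1 week), 0.0050 to 0.022 (higher in starved controls) and -0.0018 to 0.026 (lower in starved controls). No paired analysis was possible because the labels give no replicate numbers. Within *hippo* RNAi, 260O and 264O against 266O to 269O, with week as a term, gave 1 called transcript (1278 at an unadjusted p under 0.05). TPM hold no depth, so precision is known only from the spread between libraries.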

Other observations

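In controls, the 2 transcripts called between 4 and 3 weeks belonged to 1 assembly code. dd_Smed_v6_1665_0_5 was at 12.5, 7.78 and 9.92 TPM in the control libraries of 4 weeks and listed at 0 in those of 3 weeks, and dd_Smed_v6_1665_0_6 was at 0, 3.02 and 0 TPM at 4 weeks, against 11.1, 10.2 and 9.55 TPM at 3 weeks (limma adjusted p = 0.0495 for each). With a mean of 1.96 TPM over all libraries, dd_Smed_v6_1665_0_5 passed the filter only through the control libraries of 4 weeks. Groups listed at 0 have no spread, so its p is not read as support. The levels of these transcripts went opposite ways, and kallisto can divide reads between transcripts of a code. Whether it did so here was not tested.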
